A study of Mus musculus with 12 samples.

Results

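The mouse genome holds 39 protein-coding Hox genes in 4 clusters, Hoxa on chromosome 6, Hoxb on 11, Hoxc on 15 and Hoxd on 2. They were taken from the deposited table by symbol, as the protein-coding genes named Hoxa, Hoxb, Hoxc or Hoxd and a number, and make up 39 of its 53342 genes. All 39 reached 1 TPM, a transcript level per length and per sequencing depth, in 3 or more libraries and were among the 17848 genes tested. Here they are ordered by paralog group, the position a gene shares with its counterparts in the other clusters, and called anterior (groups 1 to 3, 8 genes), central (4 to 8, 15 genes) or posterior (9 to 13, 16 genes).

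RNA of the caudal region was sequenced from pools of 4 to 7 E10.5 mouse embryos with a stranded poly(A) library kit. The mutants served as models of failed closure of the neural tube. Its 12 libraries fall into 4 genotypes of 3 each. The beta-catenin cKO embryos carried a conditional knockout of beta-catenin, the transducer of canonical Wnt signals, and the Emg1 cKO embryos one of Emg1, a methyltransferase needed to build the small ribosomal subunit. Vangl2 Lp/Lp embryos were homozygous for Loop-tail, a missense allele of the planar cell polarity gene Vangl2, and the fourth group was wild type. The sources used here do not give the recombinase driver, the cells it acts in, the deleted exons or the strain. The labels do not say that replicate pools came from separate litters, so the p-values measure the spread between pooled libraries.

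Hox genes encode homeodomain transcription factors that give cells their position along the head-to-tail axis. Genes at the 3′ end of a cluster are switched on earlier and reach further forward than those at the 5′ end, and the last paralog groups act at the hips, the tail and the far limb. In the growing tail, Wnt, FGF and retinoic acid signals and the Cdx factors act on the clusters, and Hox proteins bind DNA together with Pbx and Meis partners.

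A sequence of 300 bases around the transcription start, with 250 bases before it and 50 after it, was at hand for 22 of the 39 genes, in 24 windows taken from RefSeq on GRCm38.p6. Each window was searched on both strands for TTTATG (a Cdx-type site), TGATNNAT (a Hox-Pbx site) and CTTTGA (a TCF/LEF site, the type through which beta-catenin acts). CTTTGA ends in the TGA with which TGATNNAT begins. The Cdx-type letters were in 5 of the 24 Hox windows (20.8%), against 11.9% of 32851 windows of all genes. The Hox-Pbx letters were in 4 of 24 (16.7%), against 8.85% of all windows, and the TCF/LEF letters in 4 of 24 (16.7%), against 5257 of the 32851 windows of all genes, a like share. The 4 windows printed were picked from genes that changed in a mutant and hold 1 match each, written in capitals. Hoxd1 and Hoxc4 also changed in a mutant, and their windows hold no match. Windows of Hoxa10 and Hoxd8 hold 2 TCF/LEF matches each, and neither gene was called in beta-catenin cKO with all libraries by edgeR's test. Whether the letters bear on the changes was not tested. They are 5′ to 3′ on the strand of the gene. Hoxb1 lies on the plus strand at chr11:96365508-96365807 with its Hox-Pbx match from position -162, counted from 0 at the start site. Hoxd3 lies on the plus strand at chr2:74711743-74712042 with its Cdx-type match from position -165. Hoxa11 lies on the minus strand at chr6:52245761-52246060 with the reverse complement of the TCF/LEF letters from position 24. Hoxd12 lies on the plus strand at chr2:74674763-74675062 with its TCF/LEF match from position -34.
Hoxb1: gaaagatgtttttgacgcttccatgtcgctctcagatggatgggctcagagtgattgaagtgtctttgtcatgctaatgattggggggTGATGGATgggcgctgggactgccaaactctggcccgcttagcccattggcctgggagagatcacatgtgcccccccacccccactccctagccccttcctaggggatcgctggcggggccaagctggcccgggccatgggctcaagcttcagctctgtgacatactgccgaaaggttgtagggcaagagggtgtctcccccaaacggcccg
Hoxd3: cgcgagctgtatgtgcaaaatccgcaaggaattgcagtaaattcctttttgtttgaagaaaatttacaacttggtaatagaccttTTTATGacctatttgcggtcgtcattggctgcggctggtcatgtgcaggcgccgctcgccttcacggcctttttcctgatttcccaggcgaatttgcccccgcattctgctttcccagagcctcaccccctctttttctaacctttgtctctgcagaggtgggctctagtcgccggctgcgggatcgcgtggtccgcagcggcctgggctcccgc
Hoxa11: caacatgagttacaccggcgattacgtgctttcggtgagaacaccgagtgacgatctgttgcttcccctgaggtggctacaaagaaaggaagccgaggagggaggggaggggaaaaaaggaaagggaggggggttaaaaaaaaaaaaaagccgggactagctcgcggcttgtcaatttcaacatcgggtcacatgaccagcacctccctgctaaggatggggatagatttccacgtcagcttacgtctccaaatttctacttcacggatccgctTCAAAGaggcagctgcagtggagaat
Hoxd12: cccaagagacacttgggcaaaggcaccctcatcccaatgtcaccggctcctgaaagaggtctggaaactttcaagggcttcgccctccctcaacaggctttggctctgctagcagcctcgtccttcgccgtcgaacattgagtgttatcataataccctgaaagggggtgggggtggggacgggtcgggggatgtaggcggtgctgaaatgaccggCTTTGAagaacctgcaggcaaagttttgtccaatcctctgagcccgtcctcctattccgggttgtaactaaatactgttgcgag

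The libraries held 32863562 to 46464596 reads assigned to genes, of which 0.144 to 0.177% fell on Hox genes. A Hox gene had between 101 reads (Hoxb13) and 6353 reads (Hoxc10) in a library, so counting error is largest for Hoxb13 and the other low genes. Emg1 was at 46.4, 45.6 and 42.1 scaled TPM in the Emg1 cKO libraries, against 71.5, 73.9 and 89.7 in wild type (log2 fold change -0.81 ± 0.08, adjusted p = 9.544e-06). Ctnnb1, which encodes beta-catenin, did not pass the test in beta-catenin cKO (-0.09, adjusted p = 0.203), and Vangl2 did not in Vangl2 Lp/Lp (0.17, adjusted p = 0.0741), where a missense allele need not alter the mRNA. Markers of the tail bud were present in all 12 libraries, with summed levels of 99.96 to 203.9 scaled TPM over 10 genes, and the forebrain genes Otx2 and Six3 stayed under 1 TPM in all 12.

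A single library stood apart from the rest along the Hox clusters. In Vangl2 Lp/Lp replicate 1, all 16 posterior Hox genes were the lowest of the 3 Vangl2 Lp/Lp libraries, with a median log2 difference of -0.70 from the mean of the other 2. Over all genes tested that median was -0.01, and 37.6% of genes were lowest in this library. Among them the log2 difference was -1.13 for Hoxa13, a gene of the tail end and the digits, -0.93 for Hoxc10 and -0.17 for Hoxb9. Toward the anterior end it was 0.97 for Hoxa4 and 0.65 for Hoxb4, but -0.82 for Hoxd1. The same library held 95.3 scaled TPM of the heart muscle gene Myh6, which spanned 0.491 to 1.90 in the other 11, and 30.6 of Barx1, a stomach mesenchyme gene that spanned 0.369 to 1.47. Its sum over a list of 8 genes of the rostral embryo, of which Otx2 and Six3 were under 1 TPM, was 136.8, of which Myh6 made up 95.3, against 25.5 to 35.8 in the other 11. Emx2, a forebrain and urogenital gene of that list, was at its lowest of the 12 libraries there (17.9). Of all 12 libraries, this one held the lowest levels of the hindlimb genes Tbx4 (27.5) and Pitx1 (55.1). These belong to a list of 12 limb bud mesenchyme genes, whose sum was not lowest there. That sum was 493.2, above 380.6 to 440.0 in beta-catenin cKO. It was below 499.7 to 540.6 in Emg1 cKO and 619.7 to 635.1 in wild type. The part of these values in the Hox levels of the library was not tested. The Hox genes as a set had a median quasi-dispersion (the spread between replicates that the test uses) of 1.36, against 0.715 over all genes tested, and of 0.790 against 0.778 without this library, so counts of changed Hox genes are given with and without it. The library was set apart by its Hox values, so counts of changed Hox genes without it follow in part from that choice.

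**Figure D1:**
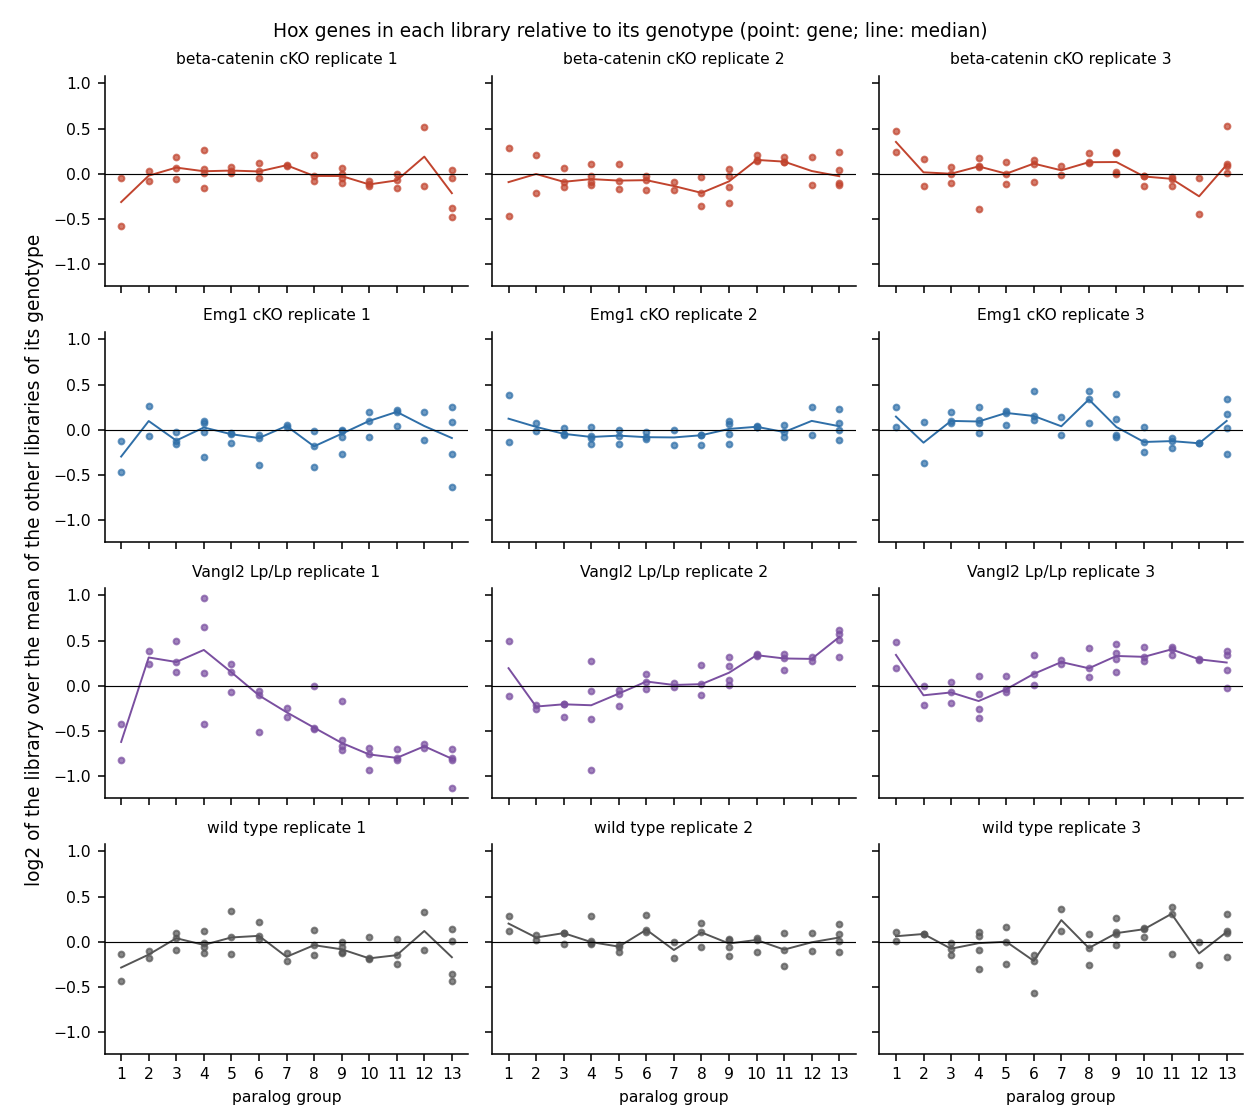
Log2 ratio of 38 of the 39 Hox genes in 1 library to the mean of the other 2 libraries of its genotype (vertical axis), by paralog group (horizontal axis), with 1 panel per library, points for genes and a line for the median of a group. In Vangl2 Lp/Lp replicate 1 Hoxb1 and Hoxd1 lie below 0, most genes of groups 2 to 4 above 0, and all 16 posterior genes below 0, with Hoxa13 at -1.13.

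In wild type every Hox gene was measured, from Hoxb13 at 7.22 ± 1.24 scaled TPM to Hoxc10 at 229.1 ± 17.8 (SD, n = 3). Scaled TPM is the deposited TPM, a level per length, times 1 factor per library, so that ratios between libraries are those the test uses. Levels did not follow the order of the genes in the clusters, as the plot of levels by cluster shows. The 4 genes that exceeded 100 scaled TPM belong to paralog groups 9 and 10, and were Hoxc10, Hoxb9 at 152.5 ± 6.49, Hoxa10 at 117.8 ± 9.09 and Hoxd10 at 101.5 ± 4.42. Hoxc10, Hoxa10 and Hoxd10 act around the lumbar level and the hindlimb in the mouse. The 7 genes under 20 included Hoxa4, Hoxa13, Hoxc12, Hoxd1, Hoxc13 and Hoxb13. Of 38 neighbours in the order of levels, 32 overlapped in their library ranges, and those that did not included Hoxc10 over Hoxb9, Hoxb9 over Hoxa10, Hoxa10 over Hoxd10, Hoxb5 over Hoxd3 and Hoxc13 over Hoxb13.

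**Figure D2:**
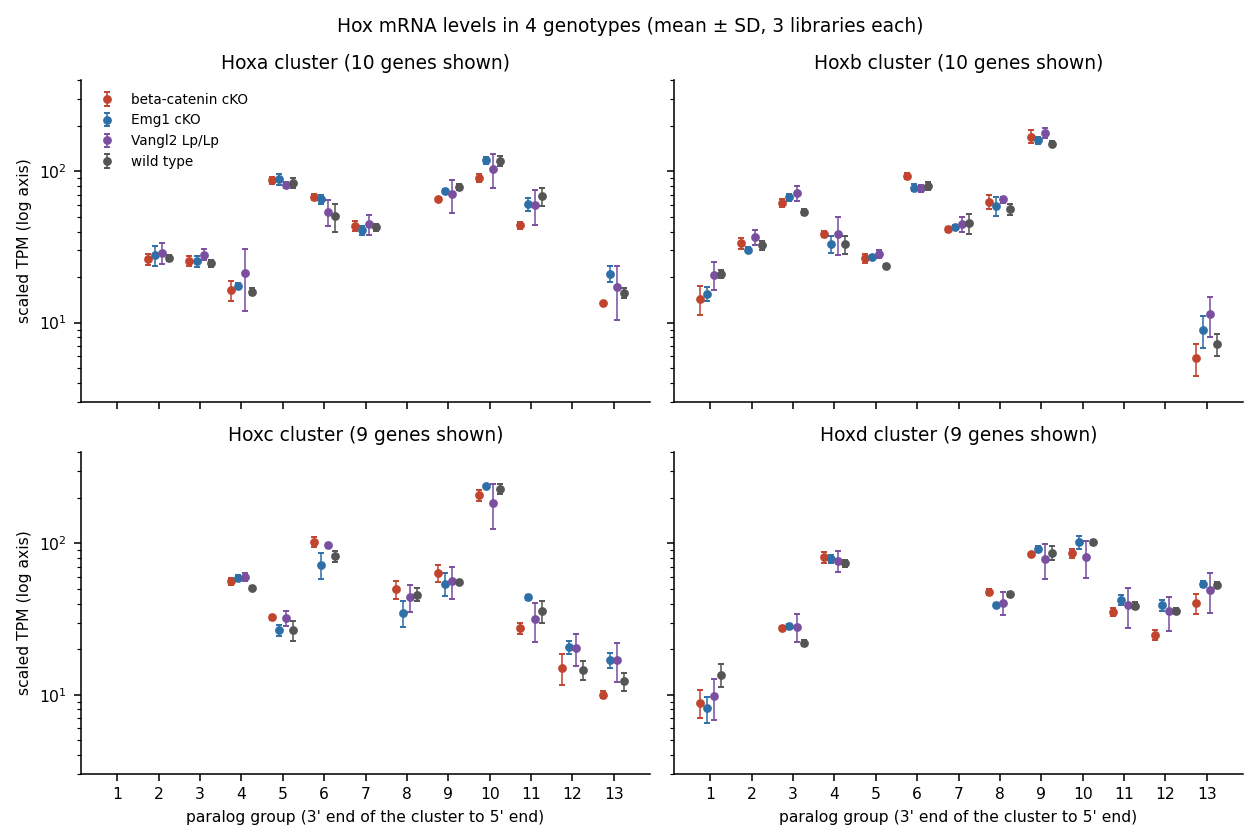
Level of 38 of the 39 Hox genes in scaled TPM (vertical log axis) by paralog group (horizontal axis), with 1 panel per cluster and mean ± SD of 3 libraries for each genotype. In wild type Hoxc10 is highest at 229.1 and Hoxb13 lowest at 7.22, and the SD bars of Vangl2 Lp/Lp are wide from group 9 on.

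In all, 10 Hox genes changed in at least 1 mutant against wild type, 14 in at least 1 of the 6 comparisons of genotypes, and 25 in none. Against wild type that is 25.6% of Hox genes beside 27.6% of all genes, and over the 6 comparisons 35.9% beside 28.7%. Without Vangl2 Lp/Lp replicate 1, 22 Hox genes changed against wild type (56.4%, beside 28.3% of all genes), 24 in at least 1 of the 6 comparisons (61.5%, beside 29.3% of all genes) and 15 in none. These larger shares follow in part from leaving out a library set apart by its Hox values. The 3 mutants share the same wild-type libraries, so their values are given side by side and not as repeats of one another. A gene was called changed at an adjusted p under 0.05 (edgeR's quasi-likelihood F test over 12 libraries, Benjamini-Hochberg over all 17848 genes), and each fold change is given on the log2 scale with its standard error.

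In beta-catenin cKO, Hoxb1, Hoxa11 and Hoxd12 fell and Hoxb6 rose. The posterior genes lay mostly lower than in wild type, while the central genes lay mostly higher. The share of Hox genes that fell, 3 of 39 or 7.69%, was close to the 6.99% of all genes that fell, and 1 of 39 rose against 7.48% of all genes. The median over the 16 posterior genes was -0.25, with 13 below 0 and 8 whose libraries lay entirely below wild type. Over all 39 genes 11 lay entirely below (17.2% of all genes did) and 8 entirely above (17.4% of all genes did). The 15 central genes had a median of 0.16, with 14 above 0, and the 8 anterior genes one of 0.01, beside 0.00 over all genes tested.

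Hoxb1, which sets the identity of the fourth rhombomere and sustains its own transcription with Pbx partners, was at 14.1, 11.5 and 17.7 scaled TPM in beta-catenin cKO, against 19.7, 22.2 and 21.1 in wild type. All 3 mutant libraries lay below all wild-type ones (14.4 ± 3.11 against 20.98 ± 1.26, log2 fold change -0.54 ± 0.16, adjusted p = 0.0354). Hoxd1, of the same paralog group, also lay below wild type in every library, by -0.62 (adjusted p = 0.0825).

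Hoxb6, which helps pattern the thoracic segments, was at 98.0, 91.7 and 89.2 scaled TPM in beta-catenin cKO, against 81.4, 84.4 and 74.9 in wild type. The groups did not overlap, and the rise was small (93.0 ± 4.50 against 80.2 ± 4.86, 0.21 ± 0.07, adjusted p = 0.0437). Its group partners Hoxc6 (0.32, adjusted p = 0.0548) and Hoxa6 (0.43, adjusted p = 0.0755) were also higher in every mutant library without passing the test. An antisense gene, Hoxb5os, overlaps Hoxb6 and Hoxb5, and since the strand setting of the counting is not given, its reads cannot be told apart from theirs.

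Hoxa11, which with Hoxd11 shapes the forearm and the kidney, was at 42.5, 46.6 and 42.9 scaled TPM in beta-catenin cKO, against 60.9, 65.7 and 78.5 in wild type. The mutant libraries stayed close together and well below wild type (44.0 ± 2.27 against 68.3 ± 9.08, -0.64 ± 0.15, adjusted p = 0.0108). Its antisense neighbour Hoxa11os, whose reads could likewise be mixed with those of Hoxa11, fell too, to 35.97 ± 3.34 in beta-catenin cKO, against 50.8 ± 5.84 in wild type (-0.50, adjusted p = 0.0327). Hoxd12, a gene of the distal limb and the hind end, was at 23.3, 27.0 and 24.3 scaled TPM in beta-catenin cKO, against 34.3, 37.3 and 35.7 in wild type. Again no library overlapped (24.8 ± 1.93 against 35.8 ± 1.52, -0.53 ± 0.14, adjusted p = 0.0220). The 3 genes of group 11 summed to 106.8 ± 6.31 in beta-catenin cKO and 142.7 ± 12.7 in wild type, and the 4 genes of group 13 to 69.6 ± 7.02 in beta-catenin cKO and 88.7 ± 2.61 in wild type.

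Posterior Hox genes are also active in limb buds. Limb bud markers were mostly lower in beta-catenin cKO, with a median of -0.58. In Emg1 cKO their median was -0.22, and 5 of 12 fell, beside 10.4% of all genes. Of 12 limb bud mesenchyme markers 9 fell (75%, beside 6.99% of all genes), Msx1, Lmx1b and Lhx2 with the smallest adjusted p. The summed level of the 12 spanned 380.6 to 440.0 scaled TPM in beta-catenin cKO and 619.7 to 635.1 in wild type. Of 10 tail bud markers 3 fell (30%, beside 6.99%), with sums of 111.7 to 114.0 in beta-catenin cKO and 147.6 to 162.4 in wild type. Of 12 neuron markers 9 rose (75%, beside 7.48% of all genes), with sums of 640.9 to 679.4 in beta-catenin cKO and 316.4 to 462.9 in wild type. None of these markers was without reads in all libraries. In such bulk samples fewer cells of a type and less RNA per cell cannot be told apart, and the part of these cells in the Hox result was not tested.

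Without Vangl2 Lp/Lp replicate 1, which enters this comparison only through the shared estimate of spread, 4 Hox genes rose (10.3%, beside 8.52% of all genes) and 9 fell (23.1%, beside 7.52% of all genes). The 9 were Hoxb1, Hoxd1, Hoxa9, Hoxa10, Hoxd10, Hoxa11, Hoxc11, Hoxd12 and Hoxd13, so 7 of the 16 posterior genes then passed, and the risers were Hoxb3, Hoxd3, Hoxa6 and Hoxb6. The added calls follow in part from leaving out a library set apart by its Hox values. The calls also hung on other libraries. Hoxa11 was lost only without wild type replicate 3 (adjusted p = 0.0503). Hoxb1 was lost on leaving out replicate 1 or 2 of beta-catenin cKO or replicate 2 or 3 of wild type (adjusted p of 0.0813 to 0.138), and Hoxd12 on leaving out replicate 1 or 3 of beta-catenin cKO or replicate 2 or 3 of wild type (0.0530 to 0.0868). Hoxb6 was lost without any 1 of the 3 beta-catenin cKO libraries, wild type replicates 1 or 3, Vangl2 Lp/Lp replicate 2 or Emg1 cKO replicate 2 (0.0580 to 0.173). Counts of genes that rose and fell were 0 and 0 without wild type replicate 3, 1 and 1 without wild type replicate 2, 0 and 1 without beta-catenin cKO replicate 1, 0 and 2 without beta-catenin cKO replicates 2 or 3, 0 and 3 without Emg1 cKO replicate 2, 2 and 4 without Emg1 cKO replicate 1, and 2 and 3 without Emg1 cKO replicate 3. With all libraries 7 Hox genes were higher and 9 lower at an unadjusted p under 0.05, 16 of 39 beside 5250 of all 17848 genes. DESeq2 called 5 higher and 6 lower, and its share over all genes is not given here.

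**Figure D3:**
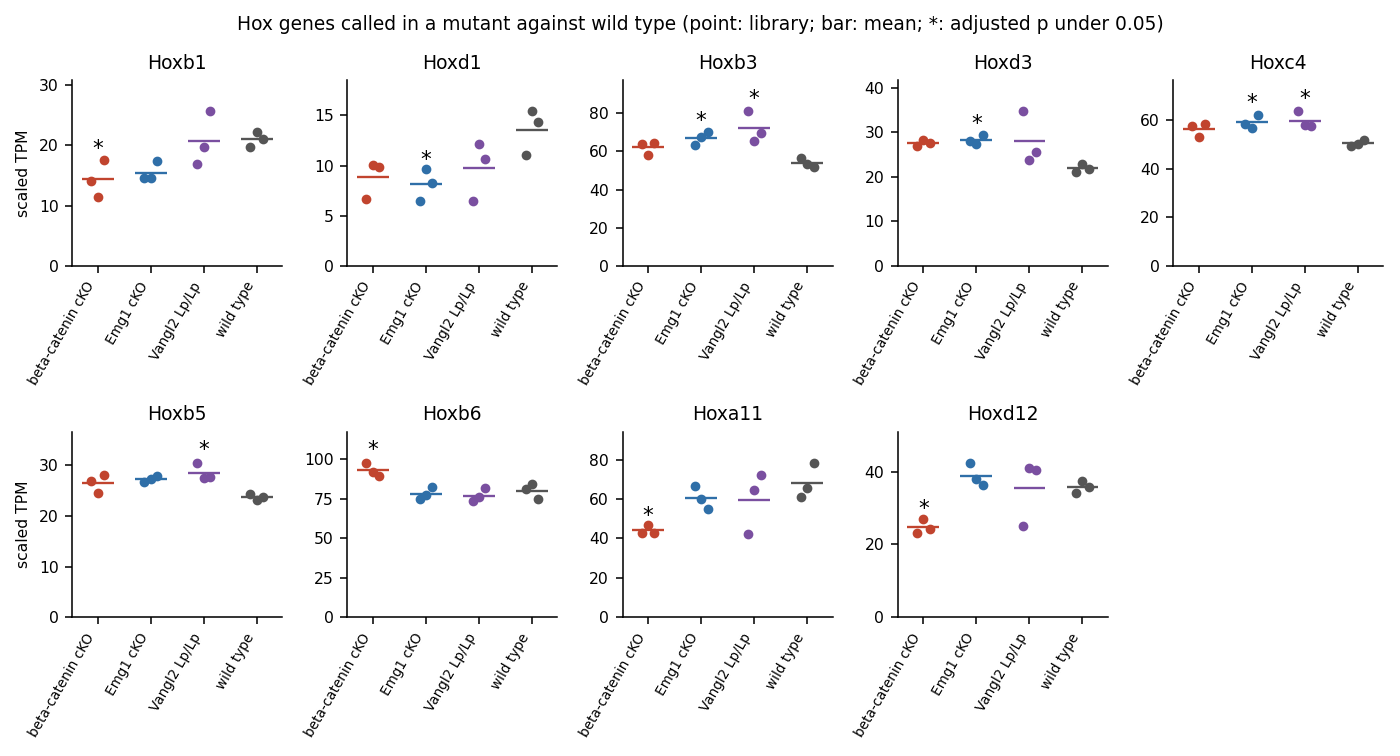
Scaled TPM (vertical axis) of 9 of the 10 Hox genes that changed in a mutant against wild type, with a point per library, a bar for the mean of 3 and a star where the adjusted p was under 0.05. Hoxa11 sits between 42.5 and 46.6 in beta-catenin cKO, below all wild-type libraries, and Hoxd1 between 6.47 and 9.62 in Emg1 cKO.

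In Emg1 cKO, Hoxb3, Hoxd3 and Hoxc4 of paralog groups 3 and 4 rose, and 2 Hox genes fell, Hoxd1 of group 1 among them. None of the 16 posterior genes passed edgeR's test, 2 were higher at an unadjusted p under 0.05, and DESeq2 called 1 higher. Of all 17848 genes 6200 were under that unadjusted p, in either direction. With all libraries the shares of Hox genes were below those of all genes, 3 of 39 that rose (7.69%) against 11.3%, and 2 of 39 that fell (5.13%) against 10.4%. Without Vangl2 Lp/Lp replicate 1, which enters only through the shared estimate of spread, this order turned round, to 8 of 39 that rose (20.5%) against 12%, and 5 of 39 that fell (12.8%) against 10.9%. That library was set apart by its Hox values, so the turn follows in part from leaving it out. Medians were near 0 in each class, -0.03 for anterior, 0.00 for central and 0.08 for posterior genes, beside 0.00 over all genes. The anterior median turned to 0.02 with library totals and to 0.09 on unscaled log2(TPM + 1), where all genes lay at 0.06 and 0.11. Within the posterior class 13 of 16 genes lay above 0.

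Hoxd1, which in the mouse takes part in wiring pain-sensing neurons, was at 6.47, 9.62 and 8.25 scaled TPM in Emg1 cKO, against 11.04, 15.4 and 14.3 in wild type. The groups did not overlap (8.12 ± 1.58 against 13.6 ± 2.28, -0.75 ± 0.23, adjusted p = 0.0294). Hoxb1 also lay below wild type in each library (-0.44, adjusted p = 0.0629).

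Hoxb3, active in the posterior hindbrain and neck, was at 63.5, 67.7 and 70.3 scaled TPM in Emg1 cKO, against 56.5, 53.3 and 52.1 in wild type. All mutant libraries were higher (67.2 ± 3.40 against 54.0 ± 2.26, 0.32 ± 0.08, adjusted p = 0.00776). Its antisense neighbour Hoxb3os went the other way, to 4.70 ± 0.196 in Emg1 cKO, against 9.12 ± 1.90 in wild type (-0.96, adjusted p = 0.000448), and reads of these overlapping genes cannot be told apart by strand here.

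Hoxd3, which shapes the first cervical vertebrae, was at 28.1, 27.5 and 29.3 scaled TPM in Emg1 cKO, against 21.01, 22.96 and 21.9 in wild type. No library overlapped (28.3 ± 0.943 against 21.9 ± 0.975, 0.37 ± 0.11, adjusted p = 0.0242), though Hoxd3 overlaps Hoxd4 on its own strand and Haglr and Hoxd3os1 on the other. Hoxc4, a gene of the lower neck, was at 58.7, 56.9 and 62.2 scaled TPM in Emg1 cKO, against 49.4, 50.2 and 52.1 in wild type. It too was higher in every mutant library (59.3 ± 2.68 against 50.5 ± 1.42, 0.23 ± 0.06, adjusted p = 0.0196), and no annotated gene overlaps it. At the far end of the clusters, the 4 genes of group 13 summed to 101.2 ± 1.02 in Emg1 cKO and 88.7 ± 2.61 in wild type, and all 6 genes of groups 12 and 13 lay above 0 (median 0.36) without passing the test.

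Of 12 neuron markers 12 rose (11.3% of all genes did), with sums of 930.3 to 984.3 scaled TPM in Emg1 cKO and 316.4 to 462.9 in wild type. Of 10 tail bud markers 5 fell (50%, beside 10.4% of all genes), with sums of 99.96 to 130.7 in Emg1 cKO and 147.6 to 162.4 in wild type. Of 12 limb bud mesenchyme markers 5 fell (41.7%, beside 10.4%), with sums of 499.7 to 540.6 in Emg1 cKO and 619.7 to 635.1 in wild type. Each marker had reads, and the part of these cells in the Hox result was not tested.

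The 8 risers in Emg1 cKO without Vangl2 Lp/Lp replicate 1 included Hoxa6, Hoxc11 (0.31), Hoxc12 (0.50), Hoxa13 (0.43) and Hoxc13 (0.46), and Hoxb1, Hoxc8 and Hoxd8 were among the 5 genes that fell. Hoxb3 was called without any 1 library. Hoxd1 was lost without wild type replicates 2 or 3 or Emg1 cKO replicates 1 or 3 (adjusted p of 0.0681 to 0.102), Hoxd3 without wild type replicates 1 or 3 or Emg1 cKO replicates 2 or 3 (0.0526 to 0.0754), and Hoxc4 without replicate 3 of Emg1 cKO or replicate 2 of wild type (0.0548 to 0.0805). Of the counts, genes that rose numbered 2 without any 1 wild-type library or Emg1 cKO replicate 2, and 1 without Emg1 cKO replicate 3. Genes that fell numbered 1 without wild type replicates 2 or 3 or Emg1 cKO replicate 1, and 3 without Emg1 cKO replicate 3, beta-catenin cKO replicates 2 or 3 or Vangl2 Lp/Lp replicate 3.

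In Vangl2 Lp/Lp, Hoxb3, Hoxc4 and Hoxb5 rose and no Hox gene fell. That is 3 of 39 (7.69%) against 5.45% of all genes that rose, and 0 of 39 against 3.34% that fell, by edgeR's quasi-likelihood test. At an unadjusted p under 0.05, 12 Hox genes were higher and 2 lower, 14 of 39 beside 4447 of all 17848 genes. DESeq2 called 6 higher and 0 lower, and its share over all genes is not given here. Medians were 0.15 for anterior, 0.10 for central and -0.07 for posterior genes, beside 0.00 over all genes. Without replicate 1 the posterior median was 0.14, with 13 of 16 above 0, so its sign turns on that library.

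Hoxb3 was at 81.1, 65.5 and 69.7 scaled TPM in Vangl2 Lp/Lp, against 56.5, 53.3 and 52.1 in wild type. All mutant libraries were higher, replicate 1 most of all (72.1 ± 8.11 against 54.0 ± 2.26, 0.42 ± 0.08, adjusted p = 0.00363), and the gene was called without any 1 library (0.32, adjusted p = 0.0156, without replicate 1). Hoxc4 was at 63.8, 58.2 and 57.5 scaled TPM in Vangl2 Lp/Lp, against 49.4, 50.2 and 52.1 in wild type. No library overlapped (59.8 ± 3.46 against 50.5 ± 1.42, 0.24 ± 0.06, adjusted p = 0.0304). Hoxb5, which acts at the level of the shoulder girdle, was at 30.6, 27.4 and 27.7 scaled TPM in Vangl2 Lp/Lp, against 24.3, 23.2 and 23.8 in wild type. Its libraries did not overlap either (28.5 ± 1.75 against 23.8 ± 0.558, 0.26 ± 0.08, adjusted p = 0.0455). Hoxd3 was higher in each library too, by 0.35 with an adjusted p of 0.0530, beside 0.33 in beta-catenin cKO (adjusted p = 0.0510) and 0.37 in Emg1 cKO.

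Of 12 neuron markers 10 rose (83.3%, beside 5.45% of all genes). Their sums were 579.3 to 1055 scaled TPM in Vangl2 Lp/Lp, the highest in replicate 1, and 316.4 to 462.9 in wild type. Of 12 limb bud mesenchyme markers 1 fell (8.33%, beside 3.34% of all genes). Sums of the 12 were 493.2 to 625.2 in Vangl2 Lp/Lp, the lowest in replicate 1, and 619.7 to 635.1 in wild type. Of 10 tail bud markers 0 were called by edgeR's test, 1 was higher at an unadjusted p under 0.05 and DESeq2 called 1 higher. Their sums were 138.7 in replicate 1, 203.7 in replicate 2 and 203.9 in replicate 3 of Vangl2 Lp/Lp, and 147.6 to 162.4 in wild type. The part of these cells in the Hox result was not tested.

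Without Vangl2 Lp/Lp replicate 1, 4 Hox genes rose (2.84% of all genes did) and 0 fell (1.19% of all genes did). They were Hoxb3, Hoxb9 (0.29, adjusted p = 0.0486), Hoxb13 (0.85, adjusted p = 0.0459) and Hoxc13 (0.69, adjusted p = 0.00666), the last 2 being genes of the tail end. Replicate 1 was left out for its low posterior Hox values. The calls of posterior genes without it follow in part from that choice and are no separate evidence of a rise. Hoxc4 (adjusted p = 0.144) and Hoxb5 (adjusted p = 0.176) were then not called. Hoxc4 was also lost without wild type replicates 1 or 2 (lowest adjusted p 0.0696), and Hoxb5 without 9 further libraries, namely all 3 of wild type, Vangl2 Lp/Lp replicates 2 and 3, beta-catenin cKO replicates 1 and 3 and Emg1 cKO replicates 2 and 3 (lowest 0.0513). The count of genes that rose was 1 without wild type replicate 2, 4 without Vangl2 Lp/Lp replicate 2, and 2 without wild type replicates 1 or 3, beta-catenin cKO replicate 1, Vangl2 Lp/Lp replicate 3 or Emg1 cKO replicates 2 or 3.

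**Figure D4:**
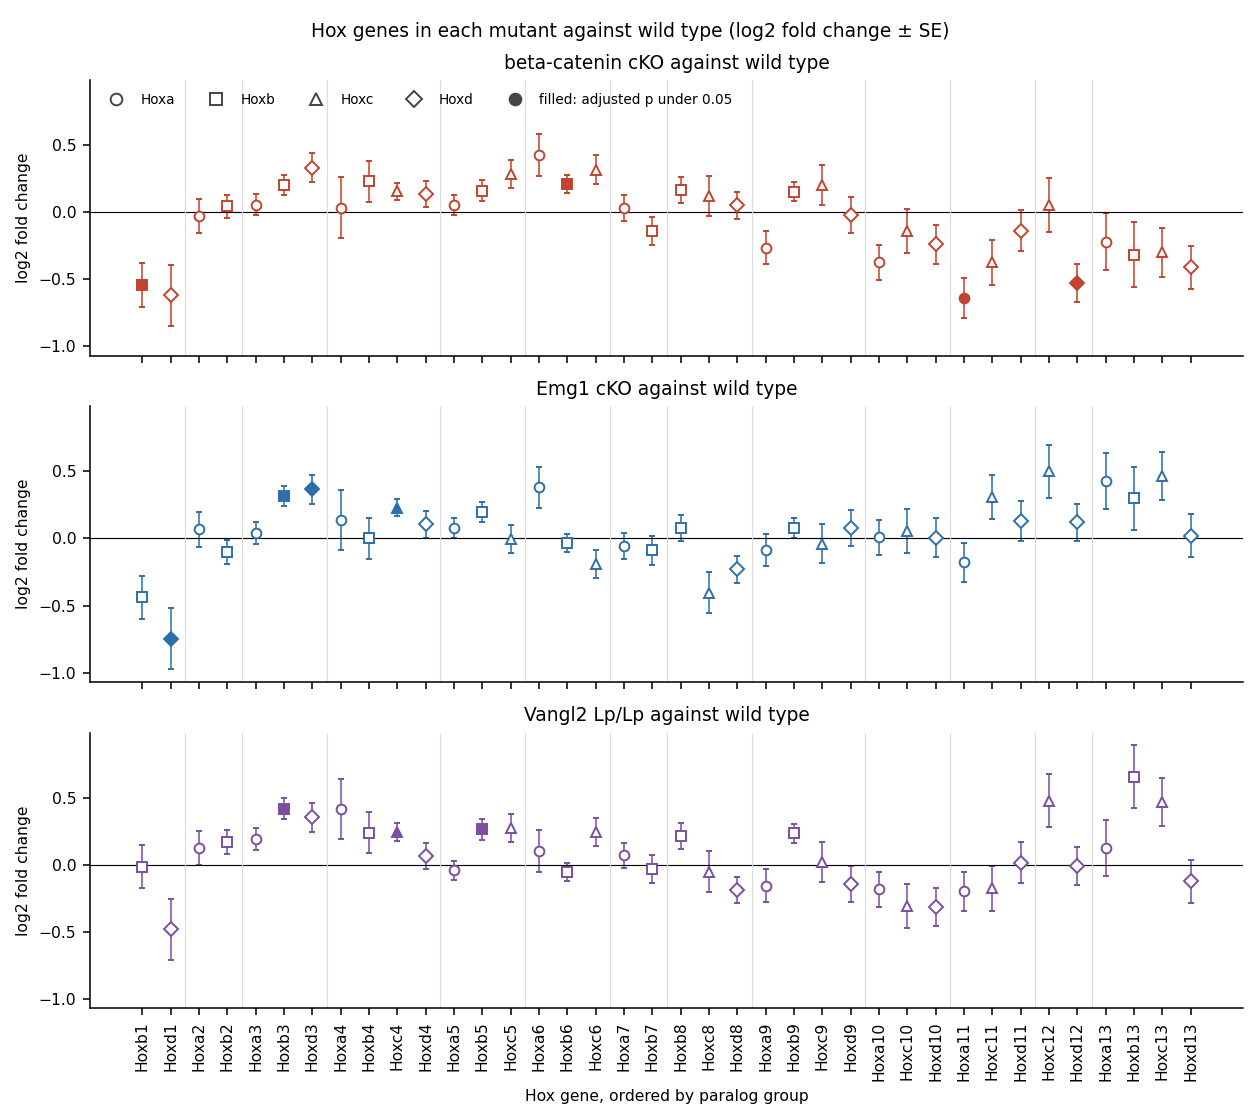
Log2 fold change ± SE against wild type (vertical axis) for 38 of the 39 Hox genes in the order of paralog groups (horizontal axis), with 1 panel per mutant, a shape per cluster and filled symbols at an adjusted p under 0.05. The median of group 3 lies above 0 in each panel, at 0.21 for beta-catenin cKO, 0.32 for Emg1 cKO and 0.35 for Vangl2 Lp/Lp.

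Between beta-catenin cKO and Emg1 cKO, Hoxc11, Hoxd12 and Hoxc13 were lower and Hoxc6 higher in beta-catenin cKO. That is 3 of 39 (7.69%) lower against 1.89% of all genes, and 1 of 39 (2.56%) higher against 1.37%. The posterior median was -0.41, with 14 of 16 genes below 0 and 12 whose libraries lay entirely below those of Emg1 cKO. Over all 39 genes the same 12 lay entirely below (12.4% of all genes did) and 7 entirely above (11.4% of all genes did). Neither group of libraries in this comparison includes Vangl2 Lp/Lp replicate 1, though that library enters the test through the shared estimate of spread.

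Hoxd12 had the smallest adjusted p among the posterior genes, with 23.3, 27.0 and 24.3 scaled TPM in beta-catenin cKO, against 42.5, 38.0 and 36.3 in Emg1 cKO. The groups lay far apart (-0.65 ± 0.14, adjusted p = 0.0201). Hoxc11, a gene of the sacral level and the hindlimb, was at 25.5, 29.9 and 27.1 scaled TPM in beta-catenin cKO, against 44.9, 45.1 and 42.3 in Emg1 cKO. Each beta-catenin cKO library lay below each Emg1 cKO library (27.5 ± 2.27 against 44.1 ± 1.57, -0.68 ± 0.17, adjusted p = 0.0361). Hoxc13, known for its role in hair and nails, was at 10.2, 9.41 and 10.4 scaled TPM in beta-catenin cKO, against 14.9, 17.6 and 18.4 in Emg1 cKO. Its levels did not overlap (9.99 ± 0.519 against 16.9 ± 1.83, -0.76 ± 0.18, adjusted p = 0.0325). Hoxc6, a marker of the forelimb level in the spinal cord, was at 104.2, 94.6 and 110.1 scaled TPM in beta-catenin cKO, against 60.01, 69.6 and 87.3 in Emg1 cKO. The Emg1 cKO libraries were spread widely, all below those of beta-catenin cKO (0.51 ± 0.11, adjusted p = 0.0151). Hoxc6 overlaps Hoxc5 on the same strand, so reads could have been shared between the pair.

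Without Vangl2 Lp/Lp replicate 1, beta-catenin cKO against Emg1 cKO gave 8 lower Hox genes (2.9% of all genes were lower) and 4 higher ones (1.66% of all genes were higher). All 8 were posterior, Hoxa10, Hoxa11, Hoxc11, Hoxd11, Hoxd12, Hoxa13, Hoxc13 and Hoxd13, and the higher ones were Hoxb6, Hoxc6, Hoxc8 and Hoxd8. Here too the added calls follow in part from leaving out a library set apart by its Hox values. With other libraries left out, higher and lower counts were 0 and 0 without beta-catenin cKO replicates 1 or 3 or Emg1 cKO replicate 2, 1 and 1 without beta-catenin cKO replicate 2, 0 and 1 without Emg1 cKO replicate 1, and 3 and 1 without Emg1 cKO replicate 3, where the lost calls had adjusted p of 0.0515 to 0.137. Without wild type replicate 3 no call was lost and Hoxb6 was gained, for 2 and 3.

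Between beta-catenin cKO and Vangl2 Lp/Lp, Hoxb13 and Hoxc13 were lower and Hoxb6 higher in beta-catenin cKO, 2 of 39 (5.13%) against 2.25% of all genes and 1 of 39 (2.56%) against 1.62%. Hoxb13, whose loss in mice lengthens the tail, was at 4.59, 5.54 and 7.29 scaled TPM in beta-catenin cKO, against 8.07, 14.8 and 11.3 in Vangl2 Lp/Lp. The lowest Vangl2 Lp/Lp library was replicate 1, yet it lay above all 3 of beta-catenin cKO (-0.97 ± 0.24, adjusted p = 0.0338). Hoxc13 was at 10.2, 9.41 and 10.4 scaled TPM in beta-catenin cKO, against 11.3, 19.6 and 20.2 in Vangl2 Lp/Lp. Replicate 1 again lay nearest to beta-catenin cKO without overlap (-0.77 ± 0.18, adjusted p = 0.0272). Hoxb6 was at 98.0, 91.7 and 89.2 scaled TPM in beta-catenin cKO, against 73.4, 76.0 and 81.9 in Vangl2 Lp/Lp, also without overlap (0.27 ± 0.07, adjusted p = 0.0341).

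Without Vangl2 Lp/Lp replicate 1, beta-catenin cKO against Vangl2 Lp/Lp gave 10 lower Hox genes (1.9% of all genes were lower) and 0 higher ones (1.33% of all genes were higher). They were Hoxb1 and the posterior genes Hoxa9, Hoxa10, Hoxa11, Hoxd11, Hoxd12, Hoxa13, Hoxb13 (-1.17), Hoxc13 (-0.99) and Hoxd13, and the posterior median was -0.40, against -0.19 with all libraries. That library was left out for its low posterior Hox values, so these posterior calls and this median follow in part from that choice. Higher and lower counts were 0 and 0 without beta-catenin cKO replicates 1 or 2 or Vangl2 Lp/Lp replicate 2, 0 and 2 without beta-catenin cKO replicate 3 or Emg1 cKO replicate 2, and 1 and 0 without Vangl2 Lp/Lp replicate 3, where the lost calls had adjusted p of 0.0504 to 0.161.

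Between Emg1 cKO and Vangl2 Lp/Lp, Hoxc6 alone was called, lower in Emg1 cKO. That is 1 of 39 (2.56%) against 1.51% of all genes, and 0 of 39 were higher against 1.32% of all genes by edgeR's quasi-likelihood test. DESeq2 called 1 higher, and 3 were higher at an unadjusted p under 0.05. Of all 17848 genes 2874 were under that unadjusted p, in either direction. Hoxc6 was at 60.01, 69.6 and 87.3 scaled TPM in Emg1 cKO, against 95.0, 99.9 and 98.2 in Vangl2 Lp/Lp. The groups did not overlap (-0.43 ± 0.11, adjusted p = 0.0383). The call was lost without wild type replicate 2, beta-catenin cKO replicate 1, Vangl2 Lp/Lp replicates 2 or 3 or Emg1 cKO replicates 1 or 2 (adjusted p of 0.0514 to 0.145). The median over the posterior genes was 0.12 with all libraries and -0.09 without Vangl2 Lp/Lp replicate 1, and no posterior gene was called either way. Without that library Hoxc6 was again the 1 Hox gene called, lower in Emg1 cKO (-0.45, adjusted p = 0.0467; 1.63% of all genes were lower), and 0 were higher (2.1% of all genes were).

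**Figure D5:**
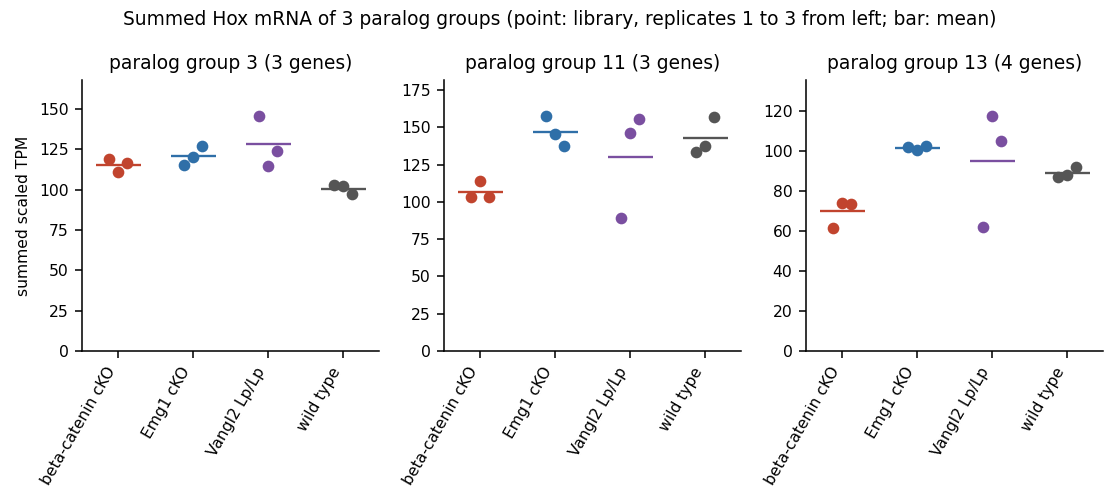
Summed scaled TPM (vertical axis) of the Hox genes of paralog groups 3, 11 and 13 in the 4 genotypes (horizontal axis), with a point per library, replicates 1 to 3 from the left, and a bar for the mean. Groups 11 and 13 are lowest in beta-catenin cKO and in Vangl2 Lp/Lp replicate 1.

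The TALE cofactors are the Pbx, Meis and Pknox families, partners with which Hox proteins bind DNA. Of the 9 tested, 6 rose in beta-catenin cKO (66.7%, beside 7.48% of all genes), 3 rose in Emg1 cKO (33.3%, beside 11.3%) and 1 rose in Vangl2 Lp/Lp (11.1%, beside 5.45%), with medians of 0.21 in beta-catenin cKO, 0.11 in Emg1 cKO and 0.06 in Vangl2 Lp/Lp. By edgeR's test 0 fell, while at an unadjusted p under 0.05 beta-catenin cKO had 0 lower, Emg1 cKO 1 and Vangl2 Lp/Lp 1, the same counts that DESeq2 called lower. Meis3, which acts with Hox proteins in the hindbrain, was at 69.4 ± 4.54 scaled TPM in beta-catenin cKO, 68.0 ± 2.33 in Emg1 cKO and 46.3 ± 4.35 in wild type (0.58, adjusted p = 0.000555, and 0.55, adjusted p = 0.000446). Pbx4 rose in Vangl2 Lp/Lp, to 6.76 ± 1.12, against 4.18 ± 0.318 in wild type (0.69, adjusted p = 0.0163).

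Genes that start the Hox clusters or time the passage from trunk to tail were mostly lower where edgeR's test called them. This list shares genes with the tail bud markers, Fgf8 and Cyp26a1 among them, so the counts of both lists overlap. Of 19, beta-catenin cKO had 8 that fell and 2 that rose, Emg1 cKO had 9 and 2, and Vangl2 Lp/Lp had 3 and 1. The list median was -0.26 in beta-catenin cKO, -0.26 in Emg1 cKO and 0.05 in Vangl2 Lp/Lp. In Vangl2 Lp/Lp 4 were higher and 5 lower at an unadjusted p under 0.05 by edgeR's test, beside 4447 of all 17848 genes. The shares that fell were 42.1% in beta-catenin cKO (6.99% of all genes fell), 47.4% in Emg1 cKO (10.4% of all genes) and 15.8% in Vangl2 Lp/Lp (3.34% of all genes). The counts that rose were near the shares of all genes that did, 2 of 19 in beta-catenin cKO beside 7.48%, 2 of 19 in Emg1 cKO beside 11.3%, and 1 of 19 in Vangl2 Lp/Lp beside 5.45%. Fgf8, a growth signal of the tail bud, fell to 13.98 ± 0.657 scaled TPM in beta-catenin cKO, against 30.4 ± 2.01 in wild type (-1.12, adjusted p = 0.000219). Lin28a, an RNA-binding protein with a part in the passage from trunk to tail, fell to 57.9 ± 3.67 in Emg1 cKO, against 128.1 ± 11.3 in wild type (-1.15, adjusted p = 2.496e-05), and Cyp26a1, which degrades retinoic acid in the tail bud, to 5.04 ± 0.854, against 12.7 ± 0.760 in wild type (-1.33). Aldh1a2, which makes retinoic acid, fell in Vangl2 Lp/Lp to 116.2 ± 2.28, against 155.4 ± 11.7 in wild type (-0.42, adjusted p = 0.000896).

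The Polycomb and Trithorax genes hold Hox clusters silent or active. Of 22, 4 rose (18.2%, beside 11.3% of all genes) and 2 fell (9.09%, beside 10.4%) in Emg1 cKO, and 1, Jarid2, rose in Vangl2 Lp/Lp (4.55%, beside 5.45%). In beta-catenin cKO edgeR's test called 0 of them and DESeq2 called 1 higher. At an unadjusted p under 0.05, 4 were higher and 1 lower, where 5250 of all 17848 genes were under it. Among 14 tested non-coding and Evx genes of the clusters, 2 fell in beta-catenin cKO (14.3%, beside 6.99% of all genes), and 3 fell (21.4%, beside 10.4%) and 1 rose (7.14%, beside 11.3%) in Emg1 cKO. In Vangl2 Lp/Lp edgeR's test called 0 of them, as did DESeq2. At an unadjusted p under 0.05, 2 were lower, where 4447 of all 17848 genes were under it. Hotair, the non-coding RNA of the Hoxc cluster, fell to 6.92 ± 0.180 scaled TPM in beta-catenin cKO, against 11.1 ± 1.96 in wild type (-0.68, adjusted p = 0.0257). Evx2, the homeobox gene beside Hoxd13, rose to 3.05 ± 0.438 in Emg1 cKO, against 1.87 ± 0.256 in wild type (0.71, adjusted p = 0.0253).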

How the data were processed

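The table holds, for each gene and library, estimated counts, as the authors deposited them (not all whole numbers, rounded here), and log2 TPM, also deposited by the authors, in which values of 1 TPM or less are written as 0 and were rebuilt from the counts. Reads were trimmed with Trimmomatic 0.39 and aligned with STAR 2.7.10b to mm10, per the submitters' processing notes; the sources used here give no counting program, strand setting or annotation release. Genes that reached 1 TPM in 3 or more of the 12 libraries (17848 of 53342) were tested with edgeR 4.0.16 (R 4.3.3, TMM scaling, quasi-likelihood F test, 1 mean per genotype, all 12 libraries in 1 fit, two-sided), with Benjamini-Hochberg adjustment over all of them and calls under 0.05. The procedure was tested on simulated counts. Printed levels are deposited TPM times 1 factor per library. Alternatives were DESeq2 1.42.0, limma 3.58.1 on log2(TPM + 1) with a pseudocount of 1, library totals as the scaling, 2 other filters, the 6 libraries compared alone, a replicate block and leaving out each library. Same-numbered libraries correlated over 0.1 in 1 of 18 pairs, so the numbers were not taken to pair libraries.

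Full statistics are given for Hox genes called against wild type (up to 10 a comparison by adjusted p) or between mutants (up to 5), and up to 3 called genes of each other list may be named. Values of 1 Hox gene and 1 cofactor are not reported here. The members and lists were chosen with earlier results of these data known. The promoter windows are credited to RefSeq (GRCm38.p6) and gene overlaps come from the deposited coordinates. Counting error at a Hox gene's lowest read number was 1.61 to 9.95% of the count, above the SD between wild-type libraries for 6 of 39 genes.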

Additional observations from a re-analysis of the deposited data

How the results depend on the processing

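No called Hox gene changed direction under any of 19 alternatives. Hoxb3 in Emg1 cKO and in Vangl2 Lp/Lp were called under all 19, Hoxa11 in beta-catenin cKO under 18, but Hoxb6 in beta-catenin cKO under only 8 and Hoxb5 in Vangl2 Lp/Lp under only 5. Counts of Hox genes are given as higher and lower. Shares of all genes under these alternatives are not given, so the counts show how far calls moved and not a result about Hox genes. In beta-catenin cKO against wild type they were 1 and 3, against 5 and 6 with DESeq2, 5 and 3 with library totals, 4 and 9 with no filter on low values, 0 and 3 with edgeR's filterByExpr, 8 and 1 with limma on log2(TPM + 1), and 2 and 9 with only the 6 libraries compared. In Emg1 cKO they were 3 and 2, against 4 and 4 with DESeq2, 5 and 2 with library totals, 8 and 5 with no filter, 6 and 1 with limma, and 6 and 3 with only the 6 libraries. In Vangl2 Lp/Lp they were 3 and 0, against 6 and 0 with DESeq2, 5 and 0 with library totals, 6 and 3 with no filter, 5 and 0 with limma, and 1 and 0 with only the 6 libraries. Between beta-catenin cKO and Emg1 cKO they were 1 and 3, against 3 and 5 with DESeq2, 4 and 10 with no filter, 1 and 1 with limma, and 4 and 7 with only the 6 libraries. Between beta-catenin cKO and Vangl2 Lp/Lp they were 1 and 2, against 1 and 5 with DESeq2, 1 and 6 with no filter, 0 and 0 with limma, and 1 and 0 with only the 6 libraries. Between Emg1 cKO and Vangl2 Lp/Lp they were 0 and 1, against 1 and 2 with DESeq2, 3 and 4 with no filter, 0 and 0 with limma, and 0 and 0 with only the 6 libraries. Unscaled TPM moved the median of all genes against wild type by 0.11 in beta-catenin cKO, 0.12 in Emg1 cKO and 0.08 in Vangl2 Lp/Lp on the log2 scale, and library totals by 0.05, 0.06 and 0.04. The cause of the differences in counts between the alternatives was not tested.

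Leaving out 1 library at a time gave 0 to 4 higher and 0 to 9 lower in beta-catenin cKO against wild type, 1 to 8 and 1 to 5 in Emg1 cKO, and 1 to 4 and 0 to 0 in Vangl2 Lp/Lp. Between mutants it gave 0 to 4 higher and 0 to 8 lower for beta-catenin cKO against Emg1 cKO, 0 to 1 and 0 to 10 for beta-catenin cKO against Vangl2 Lp/Lp, and 0 to 0 and 0 to 1 for Emg1 cKO against Vangl2 Lp/Lp. With the replicate block the counts were 0 and 4 in beta-catenin cKO, 4 and 3 in Emg1 cKO, 4 and 1 in Vangl2 Lp/Lp, 1 and 3 between beta-catenin cKO and Emg1 cKO, 0 and 3 between beta-catenin cKO and Vangl2 Lp/Lp, and 0 and 1 between Emg1 cKO and Vangl2 Lp/Lp, though 1 of 18 same-numbered pairs correlated over 0.1 and the libraries share only a number. With 3 pools a genotype and at most 372 reads of Hoxb13, the lowest Hox genes have the largest counting error.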

Other observations

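Genes of other tissues near the neural tube were also called in the same libraries. Of all genes 7.48% rose and 6.99% fell in beta-catenin cKO, and 11.3% rose and 10.4% fell in Emg1 cKO. In Vangl2 Lp/Lp 5.45% rose and 3.34% fell. A single call in a list this short is not read as a change of that tissue. Of 11 surface ectoderm genes 6 fell in beta-catenin cKO, 10 fell and 1 rose in Emg1 cKO, and 4 fell in Vangl2 Lp/Lp. Of 12 paraxial mesoderm genes 2 rose and 1 fell in beta-catenin cKO, 4 rose in Emg1 cKO, and 2 rose and 1 fell in Vangl2 Lp/Lp, with Pax1, a gene of the ventral somite, at 49.4 ± 0.577 scaled TPM in beta-catenin cKO, 50.4 ± 2.09 in Emg1 cKO, 40.6 ± 3.99 in Vangl2 Lp/Lp and 27.0 ± 2.31 in wild type. Of 10 neural progenitor genes 5 rose in beta-catenin cKO, 6 in Emg1 cKO and 7 in Vangl2 Lp/Lp. Of 7 hindgut genes 2 rose in beta-catenin cKO and 2 fell in Emg1 cKO. Of 8 lateral plate and gut mesoderm genes 1 rose in beta-catenin cKO, 2 rose and 1 fell in Emg1 cKO, and 1, Barx1, rose in Vangl2 Lp/Lp, where replicate 1 alone was high. How these cells bear on the Hox levels was not tested.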
